A study of Mus musculus with 6 samples.

Results

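Annotated retained-intron transcripts were followed in RNA-Seq of the mouse forebrain. A transcript was a member when the GENCODE M21 annotation of GRCm38 gave it the type retained intron and its mean over 6 mice was 20 or more reads, as the expected counts that Salmon assigns. Of 117135 transcripts in the files, 21461 carried that type and 8887 passed, in 5191 parent genes. The mice were C57BL/6, and the whole forebrain was taken at postnatal day 20. There were 3 mice with 1 deleted copy of *Slc13a4*, which encodes a sodium-coupled sulfate transporter (Nas2Del_Het_1024, Nas2Del_Het_1025 and Nas2Del_Het_1027, here *Slc13a4*+/-), and 3 wild-type mice (Nas2Del_WT_1016, Nas2Del_WT_1018 and Nas2Del_WT_1026). Values by mouse are given in this order, *Slc13a4*+/- first. No other allele or agent is named for either group. Stranded libraries depleted of rRNA gave 60340337 to 80410582 reads a mouse. Members were thus chosen by the annotation and the mean read number, so their levels and shares are a description. Only the contrast of genotypes was tested. The rule did not use the genotype, but a member with few reads in 1 group could pass through the other group alone. For such members a difference was favoured by the rule. Nearest the threshold, members of *Cnot10* and *Osbpl1a* had means of 20.0002 and 20.0005 reads, and transcripts of *Scyl2* and *Aebp2* at 19.9977 and 19.9975 lay outside.

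Introns are cut from a new RNA by the spliceosome, and a retained intron is one that stays in an otherwise spliced and polyadenylated RNA. Many such RNAs are held in the nucleus or, if exported, are open to nonsense-mediated decay when the intron brings a stop codon into the reading frame. Genes of the splicing machinery are known for introns of this kind, through which the cell can lower or delay their protein. A library from total RNA also holds RNAs not yet fully spliced, and their intronic reads can be assigned to these transcripts.

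Short introns held whole inside an exon of a member are printed for genes in which members took a large share of the reads, since they are the sequence that separates the member from the spliced RNA. Each runs 5′ to 3′ on the strand of the gene with 10 bases of exon on both sides, and capitals mark the first and last 2 bases of the intron. They were read from the transcripts of GENCODE M21, and the coordinates (GRCm38) are those of the intron.
Carmil2, chr8:105690920-105691082, plus strand: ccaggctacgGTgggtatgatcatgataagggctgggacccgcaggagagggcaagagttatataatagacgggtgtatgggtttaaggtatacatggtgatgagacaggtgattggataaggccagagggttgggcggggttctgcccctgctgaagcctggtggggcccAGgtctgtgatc
Gfra4, chr2:131041342-131041394, minus strand: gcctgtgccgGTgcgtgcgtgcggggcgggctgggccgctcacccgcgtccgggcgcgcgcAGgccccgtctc
Rps16, chr7:28352274-28352362, plus strand: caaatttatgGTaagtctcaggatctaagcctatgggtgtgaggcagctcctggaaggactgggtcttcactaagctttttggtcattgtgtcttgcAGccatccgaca
Atg4d, chr9:21268528-21268604, plus strand: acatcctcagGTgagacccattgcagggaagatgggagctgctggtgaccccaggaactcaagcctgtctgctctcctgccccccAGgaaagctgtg
Clk1, chr1:58417180-58417266, minus strand: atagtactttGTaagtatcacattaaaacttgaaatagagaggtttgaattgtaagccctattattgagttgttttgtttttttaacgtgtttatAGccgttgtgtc
Srsf5, chr12:80949605-80949716, plus strand: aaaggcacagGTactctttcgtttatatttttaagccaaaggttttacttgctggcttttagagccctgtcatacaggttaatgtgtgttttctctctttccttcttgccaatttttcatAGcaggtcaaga
Snrnp70, chr7:45392134-45392262, minus strand: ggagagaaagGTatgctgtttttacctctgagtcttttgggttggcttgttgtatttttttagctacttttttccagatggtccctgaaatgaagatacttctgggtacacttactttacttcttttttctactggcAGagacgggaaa
Tia1, chr6:86418933-86419100, plus strand: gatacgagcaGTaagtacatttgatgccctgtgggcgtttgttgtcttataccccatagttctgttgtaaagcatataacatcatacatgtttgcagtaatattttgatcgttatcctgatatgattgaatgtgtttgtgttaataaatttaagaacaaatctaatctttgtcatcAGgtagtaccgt

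All 8 introns begin with GT and end with AG. In 7 of them, read in the frame of the exon before, a stop codon is reached, and the exception is the 53-base intron of *Gfra4*. Base composition differs between them, with 84.9% G and C in the intron of *Gfra4* and 27.6% in that of *Clk1*.

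The members differ in how the intron is carried. In 3356 of the 8887 (37.8%) at least 1 whole intron of the gene lies inside an exon, and these hold 4711 different introns with a median length of 337 bases. In 5449 (61.3%) no whole intron is held, but an end of the transcript lies inside an intron, and 82 show neither form. Of 4710 whole introns with a sequence, 98.2% run from GT to AG, 50 from GC to AG and 6 from AT to AC. Coding exons flank 91.8% of the whole introns on both sides. Where the frame was known, 3839 of 4222 (90.9%) hold a stop codon in frame. The introns counted as retained whole were short for their genes. This rests in part on the rule, which kept the shortest of overlapping retained introns and left out introns entered only by a transcript end. In 2472 of 3339 members with both kinds (74.0%), the median retained intron was shorter than the median intron spliced out elsewhere in the gene, and the medians over these members were 373.5 and 849 bases.

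Introns of the minor spliceosome, a separate machinery for a rare class of introns, often begin with ATATCCTT or GTATCCTT. These letters, searched for only at the first 8 bases on the strand of the gene, open 23 of the 4710 retained introns (0.488%) and 12 of 3052 introns of retained-intron transcripts below the threshold (0.393%). A pair of them is shown with these 8 bases in capitals beside the last 2, as this start was the feature searched for.
Polr2e, chr10:80036843-80036914, minus strand: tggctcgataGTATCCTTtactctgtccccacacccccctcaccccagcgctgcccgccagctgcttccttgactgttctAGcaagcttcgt
Rfx5, chr3:94956607-94956720, plus strand: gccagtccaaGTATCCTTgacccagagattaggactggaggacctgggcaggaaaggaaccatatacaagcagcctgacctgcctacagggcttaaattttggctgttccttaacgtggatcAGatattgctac
*Polr2e* encodes a subunit shared by the nuclear RNA polymerases, and *Rfx5* a factor of MHC class II promoters. *Exosc5*, a subunit of the RNA exosome, and *Rpl4*, a protein of the large ribosomal subunit, also have a member with such an intron. These 4 genes were chosen after the matches were seen, and a match of letters is a description, not a measured splice event.

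How much of a member is its own sequence bears on how its reads are told from those of the spliced RNA. The median member had 38.1% of its bases in no other transcript of the gene. For 3556 members the figure was 50% or more, for 1709 it was under 10%, and 640 had no base of their own. Exons of another gene on the same strand covered 10% or more of 234 members. In 63 members of 45 genes an exon contains a gene for a small nucleolar or Cajal body RNA, and these members held 2.65% of all member reads. Those with most reads were transcripts of *Ncapd2*, *Eif4a1* and *Rpl13a*.

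*Slc13a4* itself has no member. Its 2 retained-intron transcripts had means of 2.87 and 14.98 reads. The gene total was 3.98, 4.39 and 3.56 TPM, which is scaled by transcript length, in the *Slc13a4*+/- mice and 6.65, 5.97 and 5.50 in the wild-type mice, without overlap. Its log2 difference in counts was -0.67 (SE 0.11, adjusted p 0.4995 in edgeR over all genes). Markers of the forebrain were present in every mouse, with *Emx1* at 14.96 to 18.8 TPM and *Neurod6* at 57.9 to 65.1 TPM, whereas *En1*, *En2* and *Hoxb3* of the midbrain and hindbrain reached at most 0.552 TPM. The cerebellar genes *Pcp2* and *Gabra6* were highest in Nas2Del_Het_1024, at 3.86 and 0.647 TPM, and reached at most 0.931 and 0.195 TPM in the other mice. The whole cerebellum and hindbrain list summed to 98.5 to 129 TPM, and the forebrain list to 124 to 140 TPM. Most of the former sum lay on the other genes of its list, *Calb2*, *Hoxa5* and *Barhl2*, for which single values are not given. One library stood apart in the members' share: for 5156 of the members (58.0%) the share of the gene was highest in Nas2Del_Het_1025. It was lowest in Nas2Del_WT_1016 for 32.1% and in Nas2Del_WT_1026 for 32.2%. Values without single mice are given beside the results that rest on them.

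Members took few of the reads of most parent genes and nearly all the reads of a few. The median parent gene had 3.68% of its mean reads on members, with quartiles of 1.33% and 10.3%. The share was 10% or more in 1333 genes, 50% or more in 203 and 75% or more in 85. The rule on read number bears on these shares, since a gene with few reads can hold a member only at a high share and a gene with many reads also at a low one. Among 4726 genes with 500 or more reads and a transcript of another type, 79 reached 50% of reads, and 117 reached 50% of the gene's TPM. A single member was found in 3040 genes, and the most in *Phip*, with 10. All but 15 parent genes were protein coding.

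Among those genes with 500 or more reads, the coding genes with the highest shares did varied work. *Carmil2*, which encodes a regulator of actin capping, had 98.7%, 98.8% and 98.6% of its reads on 2 members in the *Slc13a4*+/- mice and 100%, 98.5% and 98.8% in the wild-type mice. Its leading member holds 1 whole intron, but 8.19% of its bases are its own. *Gfra4*, a receptor of the GDNF family, had 96.1%, 96.4% and 93.9% against 95.3%, 93.8% and 94.3%, on a leading member with no base of its own. The groups overlapped in both genes, and so they did in 19 of the 20 highest. In *Atg4d*, a protease of autophagy, they did not, with 86.4%, 84.5% and 86.4% in the *Slc13a4*+/- mice below 87.4%, 86.8% and 87.5%.

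Further genes in which members took most reads included *Xdh* at 96.2%, the enzyme that turns hypoxanthine and xanthine to uric acid. *Rps16*, a protein of the small ribosomal subunit, followed at 88.1%, and *Tbl3*, a factor of ribosomal RNA processing, at 87.2%. *Ccnl2*, a cyclin of splicing-associated kinases, stood at 77.0%, and *Kcnn3*, a small-conductance calcium-activated potassium channel, at 76.7%. *Rgs11*, a regulator of G protein signalling, had 73.4% on 4 members, and *Tmed7*, a cargo receptor of the early secretory pathway, 73.3%. *Vmn2r115* and *Vmn2r120*, at 100% and 99.9%, are vomeronasal receptor genes with close paralogs, among which reads could have been divided. Exons of another gene on the same strand covered 95.6% of the leading member of *Gm21992* (88.9%) and 34.8% of that of *Ncapd2* (88.7%), a condensin subunit, so these reads may belong to a neighbour. All these values, and those of the genes below, are shares of reads, which also depend on transcript length. By TPM, the member of *Tmed7* held 29.5% of its gene and the leading member of *Ncapd2* 98.1%.

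**Figure D1:**
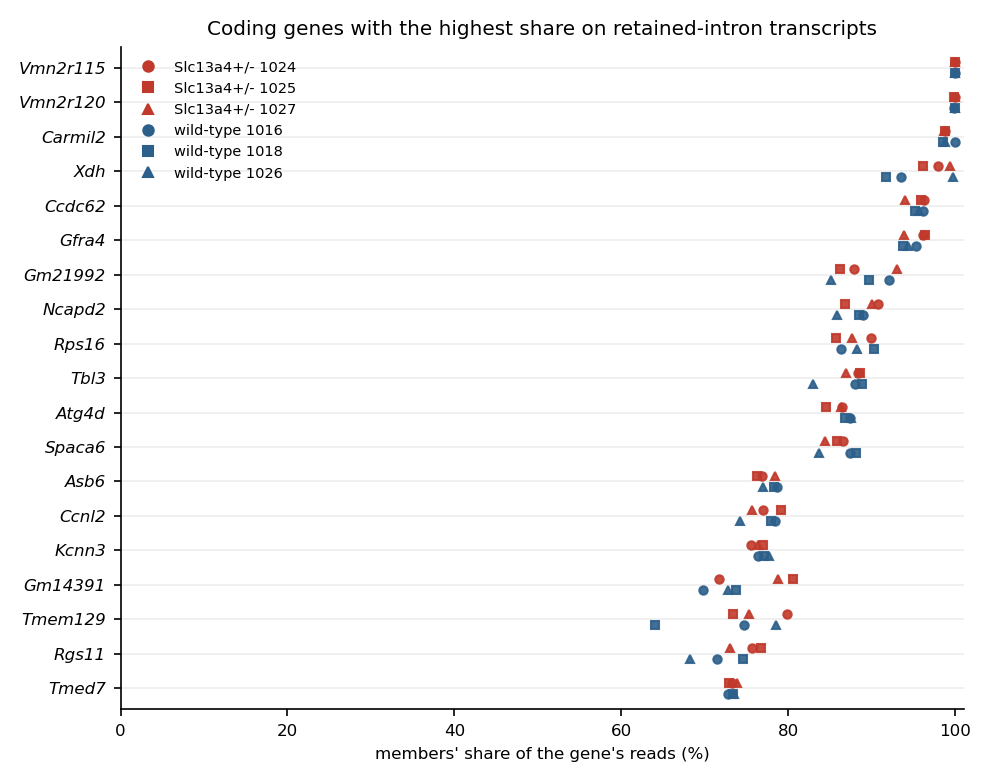
Members' share of the reads of the gene (x axis, %) for 19 of the 20 coding genes with the highest mean share among genes with 500 or more reads. Each point is 1 mouse, red for *Slc13a4*+/- and blue for wild-type. Mean shares run from 73.3% in *Tmed7* to 100% in *Vmn2r115*, and the genotypes overlap in all but *Atg4d*.

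The members with the most reads lay in genes of neurons and of general cell function. A member of *Syne1* (chr10:5336949-5368486, minus strand), which encodes the nuclear envelope protein nesprin 1, had 23374, 19991 and 22398 reads in the *Slc13a4*+/- mice and 19103, 17259 and 23320 in the wild-type mice. Of its bases 3.36% are its own. *Uchl1*, a neuronal ubiquitin hydrolase, had 16051, 13792 and 14465 reads on its leading member (chr5:66676892-66687229, plus strand) against 14460, 13148 and 15596. The member of *Tmem178b* (chr6:40248901-40255150, plus strand) had 12278, 11550 and 12079 against 9885, 8817 and 14913, and 95.6% of it is its own sequence. These 3 members took 34.1%, 50.2% and 72.8% of the reads of their genes, and read numbers overlapped between the groups for each. *Itm2b*, *Ncapd2*, *Stk25*, *Tmed7*, *Prkcb*, *Clptm1* and *Eif4a1* complete the first 10, which held 7.51% of all member reads.

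Lists of genes by role differed in how much of their reads lay on members, which is described here without a test. Among lists that act on RNA, the median share over parent genes was 9.39% for SR proteins and related factors (20 of 25 genes had a member), 18.3% for splicing kinases (9 of 12) and 4.81% for hnRNPs and other splicing regulators (28 of 48). It was 5.83% for the major spliceosome (26 of 34), 18.3% for the minor spliceosome (4 of 10), 6.01% for the nuclear exosome and nuclear poly(A) factors (14 of 19 in the files) and 2.66% for nonsense-mediated decay and the exon junction complex (6 of 15). Genes already known for a detained or retained intron stood at 11.7% (9 of 12 in the files). The median was 1.06% for synaptic genes (28 of 45), 1.13% for heat shock and handling genes (11 of 22) and 2.61% for ribosomal proteins (19 of 24), in which single genes ran from 0.0482% to 45.7% in *Rpl12*. Over all parent genes it was 3.68%. Of 32 host genes and nuclear noncoding RNAs 2 were in the files, and *Snhg11* had a member, with 73.5% of its reads.

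In single genes of these lists the share was large. *Rsrp1*, an arginine and serine rich protein, had 53.0%, 57.1% and 53.5% on its member in the *Slc13a4*+/- mice and 46.5%, 52.3% and 48.3% in the wild-type mice. In *Snrnp48*, a protein of the minor spliceosome, 47.8%, 56.6% and 50.8% stood against 40.6%, 46.5% and 40.2%. The groups did not overlap in *Rsrp1* and *Snrnp48*, and Nas2Del_Het_1025 was the highest in both. Over all 5191 parent genes, the *Slc13a4*+/- mice lay wholly above the wild-type mice in 1248 (24.0%) and wholly below in 42 (0.809%), so this separation is common among parent genes. For the shares of single transcripts of every type, the figures were 9.99% and 5.28% of 49543 tested.

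The kinases of the Clk family, which phosphorylate SR proteins, also had high shares. *Clk1* had 38.9%, 46.1% and 41.4% of its reads on 5 members in the *Slc13a4*+/- mice and 37.1%, 38.6% and 34.2% in the wild-type mice. In *Clk4* the shares were 34.8%, 39.9% and 37.8% against 30.4%, 29.5% and 30.6%, and in *Clk3* 31.3%, 38.1% and 34.4% against 26.3%, 28.1% and 29.5%. The groups did not overlap in any of the 3 kinases. *Srpk1*, a second kind of SR protein kinase, had 22.5%, 27.0% and 22.9% against 16.9%, 19.9% and 18.5%, again without overlap, and its leading member has no base of its own.

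Further genes of RNA processing were of the same kind. *Snrnp70*, which binds U1 snRNA, had 38.2%, 45.6% and 40.3% on 9 members against 29.9%, 34.2% and 31.4%. *Tia1*, a regulator that binds near weak donor sites, had 38.8%, 43.1% and 39.6% on 8 members against 33.2%, 34.3% and 32.7%. The *Slc13a4*+/- mice lay above the wild-type mice in both. Overlap was found in *Srsf5*, an SR protein, with 33.4%, 44.4% and 37.6% against 32.9%, 36.6% and 35.3%. *Prpf31*, a protein of the U4/U6 snRNP, hardly varied, with 32.5%, 32.9% and 32.8% against 32.5%, 32.8% and 32.4%. In *Exosc8*, a subunit of the exosome, the shares were 40.9%, 44.4% and 43.0% against 37.5%, 41.0% and 36.9%, with a slight overlap.

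Synaptic genes had low shares, and ribosomal genes both low and high ones. *Gria2*, a subunit of the AMPA receptor, had 9.19%, 12.5% and 9.64% in the *Slc13a4*+/- mice and 8.54%, 9.96% and 8.80% in the wild-type mice, the highest of the synaptic list. *Rpl12*, a protein of the large ribosomal subunit, had 47.8%, 51.2% and 44.1% against 42.9%, 46.0% and 42.7%. The groups overlapped in both genes, and neither leading member has a base of its own.

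Summed over all retained-intron transcripts of a gene and set against the rest of it, the log2 difference of *Slc13a4*+/- from wild-type was 0.59 (SE 0.19) in *Snrnp70*, 0.47 (SE 0.18) in *Clk4*, 0.39 (SE 0.18) in *Tia1* and 0.34 (SE 0.19) in *Clk1*. The adjusted p by edgeR's quasi-likelihood test was 0.304, 0.304, 0.314 and 0.375 and by DESeq2's Wald test 0.312, 0.384, 0.428 and 0.504, so none passed the threshold of 0.1. Over all 6456 genes tested this way edgeR called 0.0%, and with p under 0.05 before adjustment 15.9% were higher and 0.31% lower. DESeq2 called 0.434% higher and 0.0929% lower, among them 24 parent genes higher and 4 lower. Taken alone, the leading member of *Snrnp70* passed in DESeq2 (log2 difference 0.49, SE 0.13, adjusted p 0.0179) and not in edgeR (adjusted p 0.596). The DESeq2 call was lost without Nas2Del_WT_1016 (adjusted p 0.144) and without Nas2Del_WT_1026 (0.173).

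**Figure D2:**
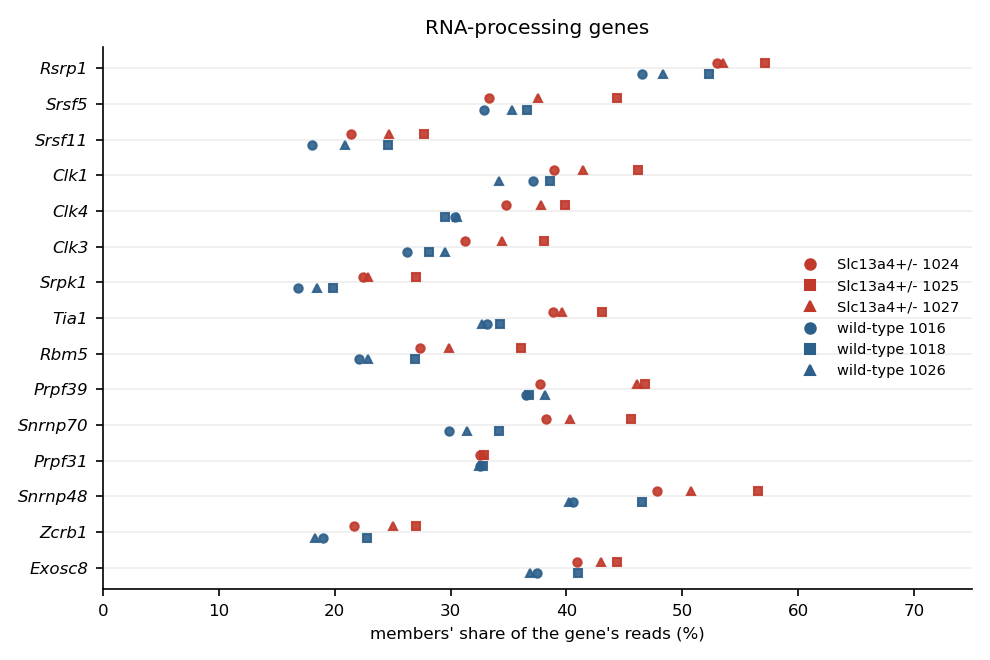
Members' share of the reads of the gene (x axis, %) for 15 RNA-processing genes. Each point is 1 mouse, red for *Slc13a4*+/- and blue for wild-type. Nas2Del_Het_1025 (red square) lies highest in most genes, and *Prpf31* stays between 32.4% and 32.9%.

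Members held a larger part of the library in the *Slc13a4*+/- mice. They took 1.93%, 2.31% and 2.04% of the reads on annotated genes in these mice and 1.77%, 1.91% and 1.72% in the wild-type mice. The groups did not overlap, but Nas2Del_Het_1024 lay close to Nas2Del_WT_1018. The means were 2.09% ± 0.20 (SD, n = 3) and 1.80% ± 0.10 (SD, n = 3). The difference of 0.286 percentage points fell to 0.178 without Nas2Del_Het_1025 and rose to 0.368 without Nas2Del_Het_1024. No p is given for a sum over chosen transcripts. Members with 50% or more own sequence took 0.524%, 0.715% and 0.582% against 0.463%, 0.525% and 0.450%, and there the groups overlapped, with a difference of 0.128.

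Some other measures of the libraries also differed between the groups without overlap. These sums were not tested between the genotypes. The summed TPM of 5 choroid plexus genes was 739 to 852 among *Slc13a4*+/- mice and 887 to 893 among wild-type mice, that of 4 endothelial genes 152 to 164 and 172 to 181, that of 5 astrocyte genes 748 to 769 and 776 to 789, and that of 5 microglial genes 244 to 251 and 252 to 276. None of these 4 lists overlapped between the genotypes. The neuronal, oligodendrocyte, ependymal, meningeal, erythrocyte and pituitary lists did, and so did the forebrain list and the cerebellum and hindbrain list. The heat shock and handling list summed to 8696 to 8736 TPM against 8900 to 9245, without overlap. The SR list, whose genes act in splicing, gave 1942, 2142 and 2071 TPM against 1885, 1962 and 1917, highest in Nas2Del_Het_1025 and with overlap. Total reads overlapped. The part of these values in the results on members was not tested, and in whole tissue fewer cells of a type and less RNA per cell cannot be told apart.

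The median share of a member within its gene was also higher in each *Slc13a4*+/- mouse than in any wild-type mouse, at 1.69%, 2.28% and 1.89% in the *Slc13a4*+/- mice and 1.42%, 1.66% and 1.44% in the wild-type mice. Other transcript types were spread less. Among transcripts under 10% of their gene, the median log2 deviation from the mean of the 6 mice was -0.05, 0.40 and 0.11 for members against -0.28, -0.06 and -0.29. The same medians were -0.02, 0.15 and 0.04 against -0.11, -0.03 and -0.13 for processed transcripts. They ran from -0.07 to 0.07 for transcripts marked for nonsense-mediated decay and from -0.06 to 0.03 for protein-coding transcripts. In all 4 types the *Slc13a4*+/- mice lay above the wild-type mice without overlap, so the separation is not particular to members. Nas2Del_Het_1024 and Nas2Del_WT_1018, of different genotype, thus stood at -0.05 and -0.06 for members.

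**Figure D3:**
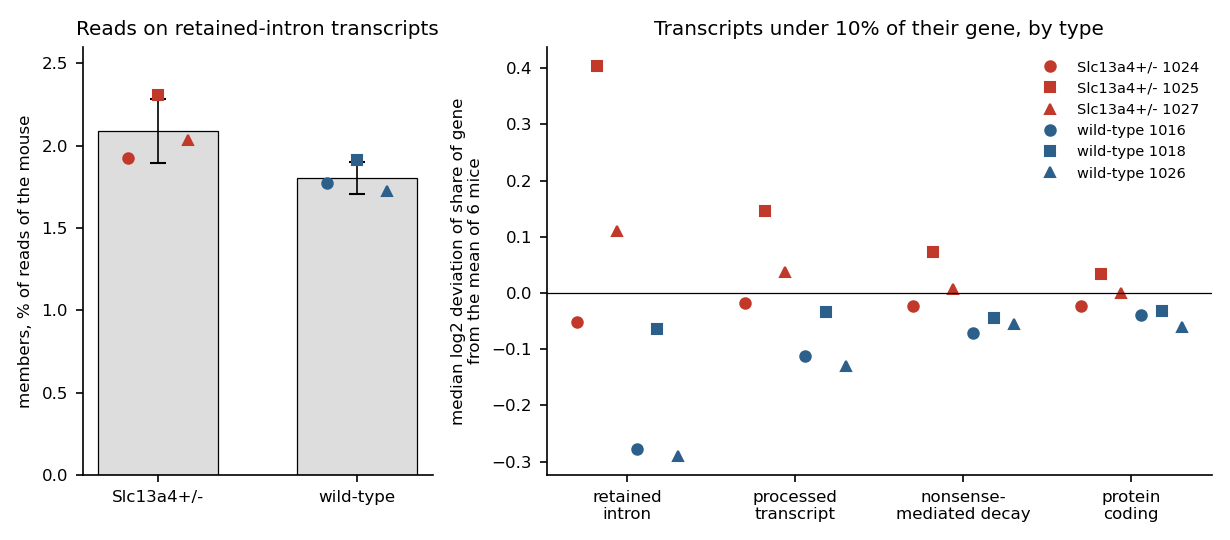
Left, reads on members as a percent of the reads on annotated genes of the mouse (y axis), with bars for the mean and error bars for SD (n = 3 per genotype). Right, the median log2 deviation of the share of the gene from the mean of 6 mice (y axis) for transcripts under 10% of their gene, by type. Points are mice, and the spread is widest for retained-intron transcripts, from -0.29 to 0.40.

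The abundance of each member was then compared between genotypes. Of the 8887 members, 8850 passed the filter on low counts and were tested among 54721 transcripts of every type. edgeR's quasi-likelihood test called 0 members at an adjusted p under 0.1, and 0.0% of all transcripts. With p under 0.05 before adjustment, 1011 members (11.4%) were higher in the *Slc13a4*+/- mice and 43 (0.486%) lower, where the background over all transcripts was 4.02% and 3.39%. That background includes the members, and over all other transcript types the figures were 2.36% and 4.24%. The median log2 difference was 0.33 over members and 0.01 over all transcripts. DESeq2 called 44 members higher and 2 lower, beside 0.294% and 0.493% of all transcripts. The 1011 fell to 352 without Nas2Del_Het_1025, 545 without Nas2Del_Het_1027, 511 without Nas2Del_WT_1016 and 571 without Nas2Del_WT_1026.

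The share of a member within its gene, in which the level of the gene and the depth cancel, was tested for 8811 members among 49543 transcripts. edgeR called 0 members and 0.0% of all transcripts. With p under 0.05 before adjustment, 1296 members (14.7%) were higher in the *Slc13a4*+/- mice and 24 (0.272%) lower, against 5.69% and 2.06% of all transcripts. Over all other transcript types, without the members, the figures were 3.08% and 2.61%. The median log2 difference was 0.36 over members, 0.15 over processed transcripts, 0.05 over transcripts marked for nonsense-mediated decay and -0.03 over protein-coding transcripts. All 3 *Slc13a4*+/- mice lay above all 3 wild-type mice for 1981 members (22.5%) and below for 91 (1.03%), where the background was 9.99% and 5.28%. DESeq2 called 278 members higher and 14 lower, in 274 genes, beside 1.54% and 0.902% of all transcripts.

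These counts varied with the mouse left out. Each such set also holds fewer mice, which by itself can lower a count. The 1296 members higher fell to 562 without Nas2Del_Het_1025, where the median log2 difference was 0.23, and to 778 without Nas2Del_Het_1027, 755 without Nas2Del_WT_1016 and 764 without Nas2Del_WT_1026. In these 4 sets DESeq2 called between 71 and 119 members in place of 292. Without Nas2Del_Het_1024 the calls rose to 408, and without Nas2Del_WT_1018 to 337. Of the 292 members, 59 were called without Nas2Del_Het_1025, and 37 in each of the 6 sets that left out a mouse.

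**Figure D4:**
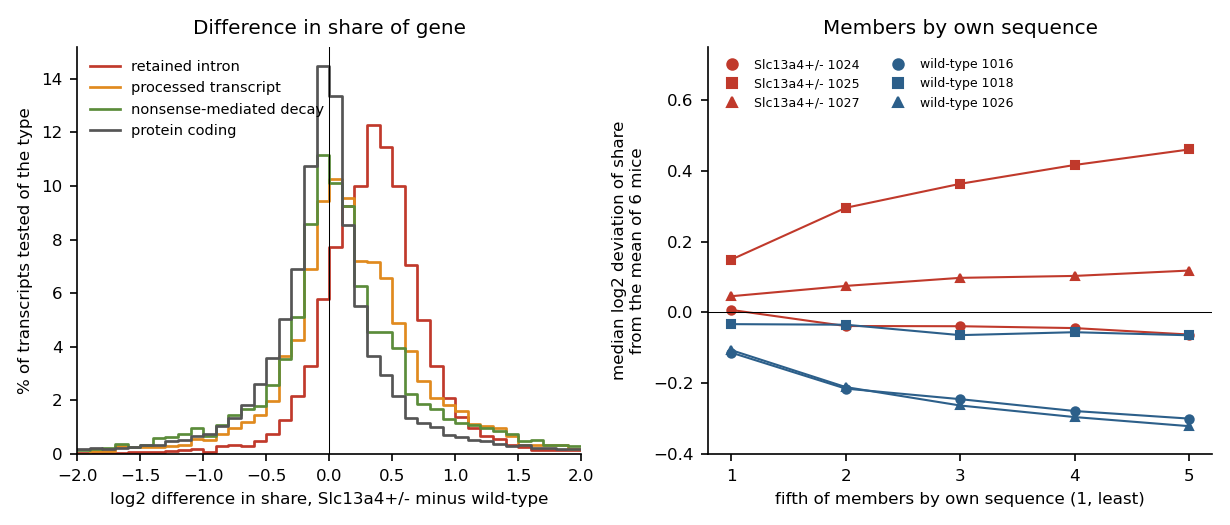
Left, the log2 difference in share of the gene, *Slc13a4*+/- minus wild-type (x axis), and the percent of tested transcripts of each type (y axis, bins of 0.1). Right, the median log2 deviation of share from the mean of 6 mice (y axis) in 5 bins of equal size of the members by own sequence (x axis), 1 line a mouse. Members centre on 0.36 and protein-coding transcripts on -0.03, and the lines of Nas2Del_Het_1025, Nas2Del_WT_1016 and Nas2Del_WT_1026 spread as own sequence rises.

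The difference in share was larger for members with more own sequence. In 5 bins of equal size by own sequence, from a median of 2.61% to 88.6%, the median log2 difference was 0.19, 0.29, 0.37, 0.39 and 0.43. The deviation of Nas2Del_Het_1025 from the mean of the mice was 0.15 in the lowest bin and 0.46 in the highest, and that of Nas2Del_WT_1026 -0.11 and -0.32. Nas2Del_Het_1024 and Nas2Del_WT_1018 were both at -0.06 in the highest bin. Binned by their share of the gene, members ran the other way, from 0.47 in the bin with the lowest shares to 0.17 in that with the highest. Members with a whole retained intron and those that end inside an intron had medians of 0.36 and 0.36. Members that contain a small nucleolar or Cajal body RNA gene had a median of 0.24.

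The totals of the parent genes were close to level in the median. Over 5190 parent genes tested as totals, the median log2 difference was -0.0003 and edgeR called 0, beside 0.00585% of all genes. Before adjustment, 323 parent genes (6.22%) were higher and 152 (2.93%) lower at p under 0.05, beside 4.98% and 4.17% of all genes. DESeq2 called 14 (0.270%) higher and 5 (0.0963%) lower, beside 0.211% and 0.199% of all genes.

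Among the 37 members that DESeq2 called in each set that left out a mouse, 35 were higher in the *Slc13a4*+/- mice (0.397% of the members tested) and 2 lower (0.0227%). Over all transcripts tested the same rule held for 0.293% and 0.188%. In 24 of them every mouse had 10 reads or more. Some of the 37 reached the mean of 20 reads only through 1 genotype, as did the *Cbs* transcript named below. The genes named from them here, except *Papola*, were chosen after their values were seen. A member of *Dnajb5* (chr4:42950351-42958732, plus strand), a co-chaperone of the Hsp40 family, had 689, 743 and 738 reads in the *Slc13a4*+/- mice and 485, 391 and 555 in the wild-type mice. The log2 difference in its share was 0.73 (SE 0.13, adjusted p 0.490 in edgeR and 1.03e-05 in DESeq2). *Colgalt1*, a galactosyltransferase of collagen, had 425, 422 and 400 reads on a member (chr8:71620683-71624906, plus strand) against 201, 232 and 268, and a log2 difference of 0.79 (SE 0.18, adjusted p 0.593 in edgeR and 0.0055 in DESeq2). The reads of the *Slc13a4*+/- mice lay above those of the wild-type mice in both genes. A member of *Sun1*, which links the nuclear envelope to nesprins (chr5:139200667-139228339, plus strand), had 226, 248 and 220 against 87.4, 104 and 135, and a log2 difference of 0.93 (SE 0.17, adjusted p 0.548 in edgeR and 0.00126 in DESeq2).

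A transcript of *Cbs*, cystathionine beta-synthase, the first enzyme on the route from homocysteine to cysteine, was found among them at low counts (chr17:31612645-31622882, minus strand). It had 36.4, 40.0 and 43.1 reads in the *Slc13a4*+/- mice and 11.0, 12.1 and 15.9 in the wild-type mice, without overlap, and 19.9% own sequence. The log2 difference in its share was 1.57 (SE 0.20, adjusted p 0.314 in edgeR and 0.00158 in DESeq2). With under 20 reads in each wild-type mouse, it passed the rule only through the *Slc13a4*+/- mice. Its difference was thus favoured by the rule, and the p-values are no support for it. In the adhesion receptor genes *Adgrb1* and *Adgrb2* the log2 differences were 1.13 and 1.06 (adjusted p 0.00643 and 0.000905 in DESeq2). *Papola*, the canonical poly(A) polymerase, had the smallest difference of the 35, at 0.51 (SE 0.11), with 288, 299 and 310 reads against 186, 183 and 253 (adjusted p 0.593 in edgeR and 0.0103 in DESeq2). In none of the 37 did the groups overlap in share, which was largely fixed by choosing them through calls on these same shares.

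Several of the members with the smallest p in edgeR were listed at or near 0 in every mouse of 1 genotype. A member of *Man2a2*, a mannosidase of the Golgi (chr7:80349097-80363462, minus strand), had 507, 227 and 371 reads in the *Slc13a4*+/- mice, 0.001 in Nas2Del_WT_1018 and 0.0 in the other wild-type mice. Such members reached the mean of 20 reads only through the group in which they have reads, so a difference was fixed by the rule, and the folds are a description. This member was at least 344-fold higher, set against a floor of 3 counts over the wild-type group. A member of *Fibp*, a protein that binds an intracellular fibroblast growth factor (chr19:5460616-5464802, plus strand), had 78.6, 56.3 and 63.4 reads and was listed at 0 in the wild-type mice, at least 61.7-fold higher. None of the wild-type mice had a full read on either member.

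*Irak2*, a kinase of Toll-like receptor signalling, had 59.1, 50.1 and 59.8 reads on a member listed at 0 in the wild-type mice. *Irf2*, an interferon regulatory factor, had 40.3, 41.2 and 42.8 on such a member. *Psmb8*, a subunit of the immunoproteasome, went the other way on a member at chr17:34198370-34201450 (plus strand), with 0 reads in the *Slc13a4*+/- mice and 51.7, 86.3 and 66.8 in the wild-type mice, at least 73.2-fold lower. None of these 5 members was called by edgeR.

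In all, 7 members were listed under 1 read in every wild-type mouse with 10 or more in every *Slc13a4*+/- mouse, and 2 were listed the other way round. These are 0.0788% and 0.0225% of the members, and among all transcripts tested 69 (0.126%) and 38 (0.0694%) did so. Members had to reach the mean read number of the rule, and the other transcripts tested did not. The percents therefore cannot show whether such listings were rarer or more frequent among members. The members of *Man2a2*, *Fibp*, *Atrx* and *Catsperz* had no base of their own, and that of *Irf2* had 2 bases, so their reads rest on how Salmon divided reads among transcripts of the gene. Of the 9, the *Psmb8* transcript had the most own sequence, with 190 of 1234 bases. A coding transcript of *Psmb8* went the other way, with 129, 61.6 and 74.7 reads in the *Slc13a4*+/- mice and 14.3, 3.63 and 20.9 in the wild-type mice. So did a coding transcript of *Catsperz*, with 73.5, 41.2 and 48.9 reads against 0 in each wild-type mouse. In *Man2a2* a coding transcript overlapped between the groups, with 74.6, 58.8 and 77.1 against 69.3, 59.9 and 85.6. The gene totals of the 9 had log2 differences from -0.24 in *Psmb8* to 0.11 in *Catsperz*. In *Fibp* another retained-intron transcript moved in the opposite direction, with 0 reads in the *Slc13a4*+/- mice and 40.1, 42.7 and 33.8 in the wild-type mice. Its gene total differed by 0.04 on the log2 scale (SE 0.04, adjusted p 0.790 in edgeR).

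**Figure D5:**
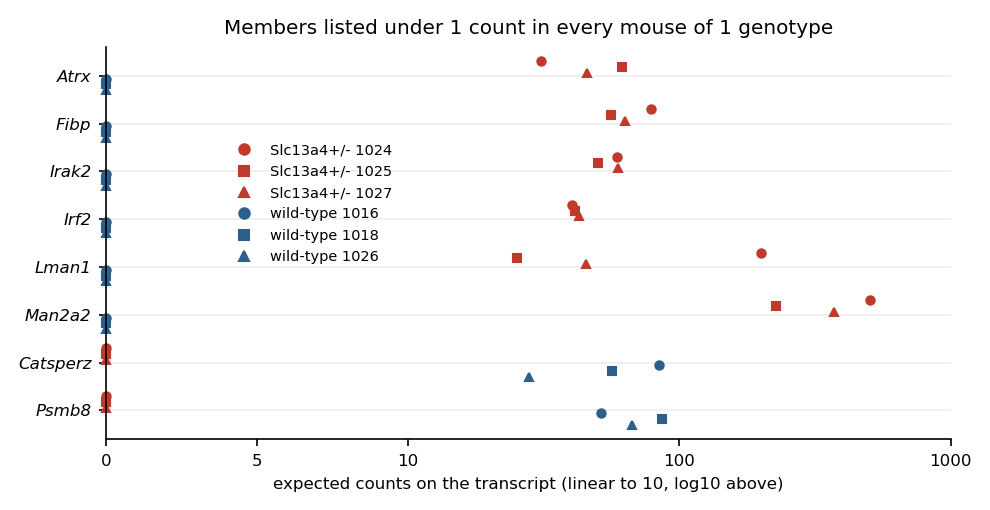
Expected counts (x axis, linear to 10 and log10 above) for 8 of the 9 members listed under 1 count in every mouse of 1 genotype and at 10 or more in every mouse of the other. Each point is 1 mouse, red for *Slc13a4*+/- and blue for wild-type. *Catsperz* and *Psmb8* have reads in the wild-type mice, and the other 6 shown in the *Slc13a4*+/- mice.

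Within the gene lists, the median log2 difference in share was 0.37 over 46 members of SR proteins and related factors, 0.33 over 29 of splicing kinases and 0.40 over 98 of hnRNPs and splicing regulators. It was 0.33 over 62 of the major spliceosome, 0.40 over 10 of the minor spliceosome, 0.38 over 10 of nonsense-mediated decay, 0.24 over 24 of the nuclear exosome and 0.22 over 22 of genes with a known detained intron. For 56 members of synaptic genes it was 0.37, for 41 of ribosomal proteins 0.26 and for 19 of heat shock and handling genes 0.49. All but the single member of *Snhg11* thus lay between 0.22 and 0.49, beside 0.36 over all members.

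edgeR called 0 members in every list. The counts that follow stand beside 14.7% of all members and 5.69% of all transcripts higher, and 0.272% and 2.06% lower, with p under 0.05 before adjustment, and no list was tested against these. DESeq2 called 3.16% of all members and 1.54% of all transcripts higher. Of the 46 members of SR proteins, 12 were higher with p under 0.05 before adjustment and 0 lower, and DESeq2 called 4 of them. For hnRNPs and splicing regulators 16 were higher and 1 lower, and DESeq2 called 2. The major spliceosome had 12 and 0, and DESeq2 called 3. For splicing kinases the counts were 6 and 1, where the member that was lower belonged to *Clk3*. That transcript had 22.48, 36.35 and 21.02 reads in the *Slc13a4*+/- mice and 41.9, 64.8 and 77.1 in the wild-type mice, without overlap, while the share of all *Clk3* members was higher. Its log2 difference in share was -1.36 (SE 0.32, adjusted p 0.593 in edgeR and 0.0300 in DESeq2). The DESeq2 call was lost in 4 of the 6 sets that left out a mouse, those without Nas2Del_Het_1024, Nas2Del_Het_1027, Nas2Del_WT_1018 and Nas2Del_WT_1026, with an adjusted p up to 0.277.

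In synaptic genes 8 of 56 members were higher and 0 lower, and DESeq2 called 2. In heat shock and handling genes 5 of 19 members were higher and 0 lower, and in ribosomal proteins 2 of 41 and 0. As gene totals, 0 of 22 heat shock and handling genes were higher and 7 lower with p under 0.05 before adjustment, where 4.98% of all genes were higher and 4.17% lower. For SR proteins 6 of 25 totals were higher and 0 lower, and edgeR called none of these totals.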

How the data were processed

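Whole forebrain RNA of 3 *Slc13a4*+/- and 3 wild-type mice was analysed. The authors quantified stranded, rRNA-depleted, paired-end libraries with Salmon 1.2.0 (GC bias correction) and deposited expected counts of each transcript. They also deposited TPM, which the authors' tool scales by length. Its transcript set was not given in the sources used here. Identifiers were matched to GENCODE M21 (115973 of 117135 transcripts, 35523 genes). The other 1162 held 0.620% to 0.645% of the reads and were left out.

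Expected counts were rounded. Abundance was tested with edgeR 4.0.16 (R 4.3.3, filterByExpr, TMM, quasi-likelihood test). Share was tested by the interaction of genotype with transcript against the rest of its gene (10 or more counts a mouse on average), with a term for each mouse. Parent genes were tested as totals, and retained-intron transcripts summed per gene as an addition made after the data were seen. Benjamini-Hochberg adjustment ran over all features tested, and 0.1 was the threshold. DESeq2 1.42.0 and limma 3.58.1 gave alternatives. The scripts were tested on simulated data. Introns under 50 bases were not counted. Members, the 12 gene lists, the markers and the tests were chosen with earlier results of these data known. Genes were named by rule: the 20 coding genes with the highest share, the 10 members with most reads, the 5 higher and 5 lower with the smallest p, and up to 4 genes and 2 members of a list, of which some are printed. Replicates are separate mice, 3 a group, and their number limits the precision. Some items are not reported here.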

Additional observations from a re-analysis of the deposited data

How the results depend on the processing

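No paired analysis was possible because the genotypes share no animal number, and no litters are named in the labels. The count of members called by edgeR was 0 in both tests under the other filters, the RLE normalization, the other thresholds on reads and without each mouse. Other tools called more. In abundance DESeq2 called 46 members. In share DESeq2 called 292, limma 1, limma on TPM shares 9, and DESeq2 on retained-intron transcripts summed per gene 28 parent genes. The sums per gene, the subset by own sequence and the fits of DESeq2 without single mice were chosen after seeing the data. Of the parent gene totals DESeq2 called 19 and edgeR with almost no filter 31.

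The median log2 difference of members stayed above 0 in every alternative. Without each mouse in turn it ran from 0.197 to 0.421 for abundance and from 0.229 to 0.467 for share in edgeR. Members higher at an unadjusted p under 0.05 ran from 352 to 1330 for abundance and from 562 to 1644 for share in edgeR, and from 298 to 1515 and from 674 to 1958 in DESeq2. Members lower ran from 34 to 54 and from 29 to 57 in edgeR, and from 73 to 102 and from 57 to 91 in DESeq2. Members called by DESeq2 ran from 38 to 378 for abundance and from 71 to 408 for share, against 0 throughout in edgeR. Parent gene totals called by edgeR ran from 0 to 84, the last without Nas2Del_WT_1026.

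Subsets hold fewer members and so fewer counts. At 100 reads or more, 438 members were higher and 22 lower in abundance, and 385 and 1 in share. With 50% or more own sequence the counts were 497 and 2, and 687 and 0, and the difference in percent of reads was 0.128. With 5 reads or more, 44 were lower in share. Summed per gene, 858 parent genes were higher and 13 lower. In share, limma on TPM gave 756 higher and 49 lower, and DESeq2 gave 75 lower. The filter of 50 counts left 23 lower in abundance and 13 in share, and almost no filter 14 in share. For 20 tests of members picked for the smallest p, 114 of 319 alternatives passed the threshold, 107 with DESeq2, and their direction was largely set by that choice. Tools disagreed in calls, and the cause was not tested. Reads shared between transcripts and the 3 mice a group limit precision.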
